A study of Mustela putorius furo and Mus musculus with 4 samples.

Results

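Small leucine-rich proteoglycans (SLRPs) and genes of collagen processing were measured in cultured astrocytes of ferret and mouse as a view of fibroblast-like RNA. The 10 genes were taken by symbol, without regard to case, from the FPKM values of each library. They are the SLRP genes Dcn, Bgn, Aspn, Lum, Fmod, Prelp and Ogn, the procollagen C-proteinase enhancers Pcolce and Pcolce2, and the lysyl oxidase gene Lox. All 10 were present in both species, among 13373 shared symbols, and each had a single value per library. The set was selected on FPKM of these same libraries, in the sense that the lower level of fibroblast genes in ferret was known when it was proposed, and Pcolce had been chosen by the study as a mouse-specific gene. The difference between species of the 10 genes is therefore described without a test.

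There were 2 ferret libraries and 2 mouse libraries. Ferret astrocytes (Mustela putorius furo) came from the cerebral cortex of animals on postnatal day 1, and mouse astrocytes from the cortex of ICR mice on postnatal days 1 to 3. In both species mixed glia were kept for 14 days in medium with 10% serum and shaken, and the attached cells were replated. Serum was withdrawn on day 3 after replating, and RNA was harvested on day 7 after 4 days in serum-free medium with heparin-binding EGF-like growth factor. The study describes the mice as wild type and the ferrets as sable animals of normal pigmentation, and states no drug treatment of the cultures used for RNA. Cells of a ferret pup were spread over several flasks, whereas cortices of several mouse pups were pooled in a flask, so the mouse cultures mix animals. Whether the duplicates of a species came from separate cultures is not stated, and the p-values given below measure only the spread between these libraries. Shaking is meant to remove loosely attached microglia and oligodendrocyte lineage cells, and the protocol has no step that removes fibroblasts. By immunostaining of cultures kept in serum, the study counted nearly all cells as astrocytes in both species. A few microglia remained in both, more in mouse, and a few neurons in ferret. No fibroblast marker is among those stained. The values come from RNA of whole cultures. Fewer cells of a type and less RNA per cell cannot be told apart in them.

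SLRPs are secreted proteins built from leucine-rich repeats that bind collagen fibrils and set fibril diameter and spacing. Most carry chains of chondroitin, dermatan or keratan sulfate, and several also bind growth factors of the TGF-beta family. Procollagen is trimmed outside the cell by proteinases of the BMP1 family, which the PCOLCE proteins enhance, and lysyl oxidase then cross-links the fibrils. In brain, fibroblasts of the meninges and of blood vessels are the best known source of fibrillar collagen and of decorin and lumican, while astrocytes are known to make other matrix proteins.

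FPKM counts sequenced fragments after division by the exon length of a gene and by the number of mapped fragments in the library. It allows levels of different genes to be compared within a species, as far as the gene models are complete. Each species was quantified on its own gene models, so unequal models enter every difference between species. Species, animal age, annotation and culture cannot be told apart. Over the shared symbols, ferret libraries summed to 227391 and 236543 FPKM, and mouse libraries to 300465 and 308122 FPKM. The log2 differences given here are ferret minus mouse on the log2(FPKM + 1) scale, which understates changes of low genes. Over 10204 genes with a mean of at least 1 FPKM in a species, the median difference was -0.35. It was -0.002 after libraries had been rescaled to a common sum (the mean sum) and 0.08 after quantile normalization. Shares of all genes called are given below for FPKM as deposited only, so splits under other settings have none beside them.

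All 10 genes were lower in both ferret libraries than in both mouse libraries, a pattern that 59.0% of the tested genes share. Summed over the 10 genes, FPKM was 105 and 97.3 in the ferret duplicates and 1078 and 1050 in the mouse duplicates, a 10.5-fold higher mean in mouse. Of the 10 genes, 9 passed the minimum of 1 FPKM, and all 9 had a log2 difference below -1, as 30.1% of all tested genes had. Lum, Pcolce and Pcolce2, 3 genes, had a ferret mean below 1 FPKM and a mouse mean of at least 1, as 10.2% of the tested genes had, and they passed the minimum through the mouse libraries alone. The ratio of mouse to ferret mean FPKM ran from 5.97 for Bgn to 134 for Ogn, with a median of 10.5 over the 9 genes above 0 in both species. The contrast chose the genes, so nothing is read from these counts.

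**Figure D1:**
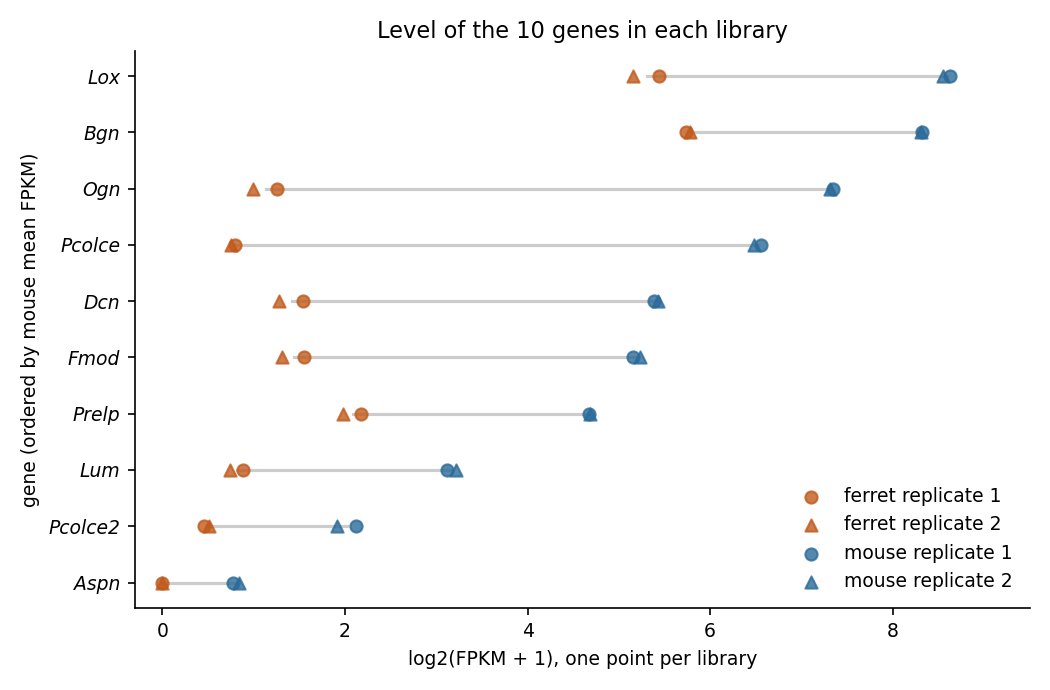
Level of each gene in the 4 libraries, as log2(FPKM + 1) on the horizontal axis, with circles for replicate 1, triangles for replicate 2, ferret in orange, mouse in blue, a grey line between the species means, and genes on the vertical axis ordered by mouse mean. In each row both ferret points lie to the left of both mouse points, and the gap is widest for Ogn and Pcolce.

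Among the class I SLRPs, Bgn encodes biglycan, which carries glycosaminoglycan chains near its amino terminus and occurs in many tissues. It had 52.1 and 54.0 FPKM in the ferret duplicates and 318 and 315 in the mouse duplicates. The means were 53.1 ± 1.34 (SD, n = 2) and 317 ± 2.30 (SD, n = 2), with a log2 difference of -2.56 (standard error 0.056). Bgn was the highest of the 10 genes in ferret astrocytes and had the smallest fold between the species. Dcn encodes decorin, the collagen-binding SLRP that is a common marker of fibroblasts. Its level was 1.92 and 1.43 FPKM in the ferret libraries against 40.7 and 42.0 in the mouse duplicates, which is 24.7-fold higher in mouse on the means (log2 difference -3.99, standard error 0.092). Relative to Dcn, Bgn stood at 27.1 and 37.9 times its level in the ferret duplicates and at 7.82 and 7.51 times in the mouse duplicates. Rescaling a library by a common factor leaves this ratio unchanged. Aspn, which encodes asporin, an SLRP without a glycosaminoglycan chain, is listed at 0 in both ferret libraries and had 0.708 and 0.795 FPKM in the mouse duplicates. It was under the minimum in both species and was not fitted.

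The class II genes encode keratan sulfate-bearing or related SLRPs. Fmod (fibromodulin) had 1.94 and 1.49 FPKM in ferret and 34.7 and 36.5 in mouse libraries, a 20.8-fold higher mouse mean (log2 difference -3.76, standard error 0.089). Prelp, whose product binds heparan sulfate and collagen, stood at 3.53 and 2.96 FPKM in the ferret libraries. Both mouse libraries had 24.6, so that mouse was 7.59-fold higher (log2 difference -2.60, standard error 0.080). Lum (lumican), a collagen-binding SLRP of cornea and many fibroblasts, had 0.850 and 0.670 FPKM in ferret and 7.68 and 8.31 in mouse libraries, a fold of 10.5 (log2 difference -2.35, standard error 0.085). The ferret libraries differed from each other by more than the mouse libraries in all 3 genes, by 1.19 to 1.30 times, and this spread was far smaller than the distance between the species.

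Ogn, of class III, encodes osteoglycin, also called mimecan. On the species means it had the largest fold of the 9 genes above 0 in both species, 134 against 128 for Pcolce. Its ferret duplicates lay apart by 1.41 times, so the lead over Pcolce is within their spread. The ferret libraries had 1.39 and 0.986 FPKM and the mouse libraries 161 and 158, with means of 1.19 ± 0.288 (SD, n = 2) and 159.5 ± 2.22 (SD, n = 2). The log2 difference was -6.20 (standard error 0.088). Ogn was the third highest of the 10 genes in mouse and the sixth in ferret astrocytes. Measured against Bgn in the same library, Ogn reached 0.027 and 0.018 in ferret and 0.506 and 0.501 in mouse, a 22.4-fold shift.

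Of the procollagen C-proteinase enhancers, Pcolce had 0.738 and 0.679 FPKM in ferret and 93.3 and 88.1 in mouse libraries. Its mouse mean of 90.7 ± 3.68 (SD, n = 2) was 128-fold above the ferret mean of 0.709 ± 0.042 (SD, n = 2), with a log2 difference of -5.75 (standard error 0.068). The related gene Pcolce2 was low in both species, at 0.370 and 0.425 FPKM in ferret and 3.37 and 2.77 in mouse libraries, a fold of 7.71 (log2 difference -1.54, standard error 0.091). Pcolce thus stood at 1.99 and 1.60 times Pcolce2 in the ferret duplicates and at 27.7 and 31.8 times in the mouse duplicates. With a pseudocount of 0.1 in place of 1, the log2 differences of Pcolce and Pcolce2 were -6.81 and -2.67, and those of Ogn and Lum -6.97 and -3.24.

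Lox encodes lysyl oxidase, the enzyme that oxidizes lysines of collagen and elastin for cross-linking. The ferret libraries had 42.5 and 34.6 FPKM and the mouse libraries 394 and 374, a 9.95-fold higher mouse mean (log2 difference -3.29, standard error 0.089). Lox was the highest of the 10 genes in mouse and the second in ferret astrocytes. Its duplicates lay apart by 1.23 times in ferret, the largest gap on the log2(FPKM + 1) scale among the 10 genes, and by 1.05 times in mouse.

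**Figure D2:**
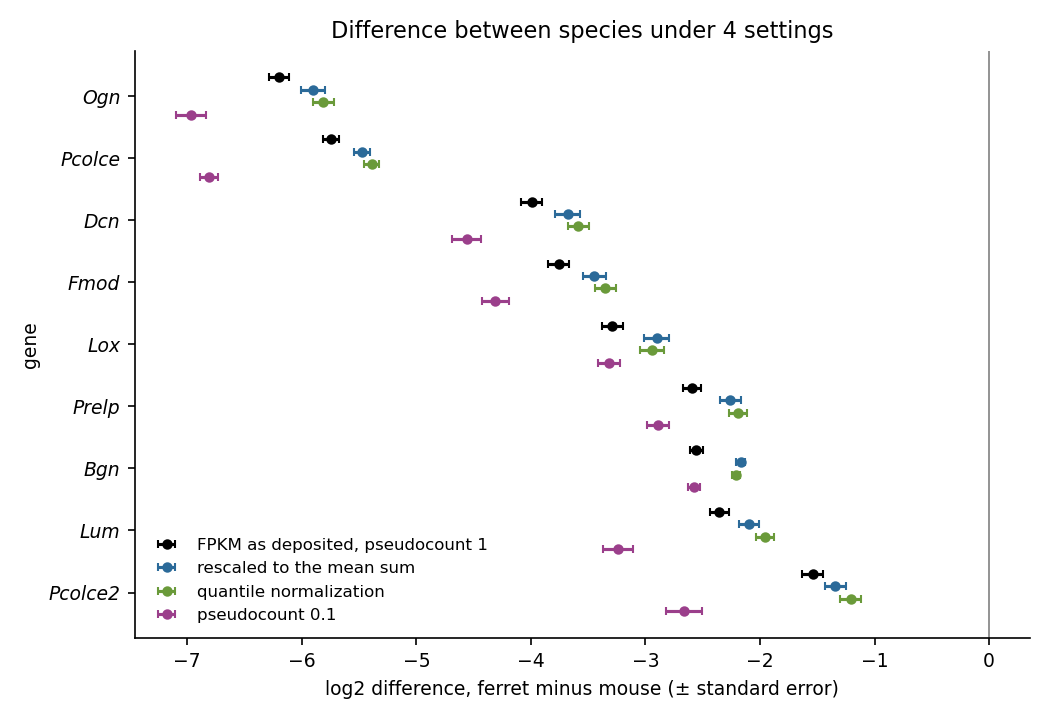
Log2 difference, ferret minus mouse, of the 9 genes that passed the minimum, with standard errors from the fit across all genes as bars. Colours give FPKM as deposited (black), libraries rescaled to the mean sum (blue), quantile normalization (green) and a pseudocount of 0.1 (purple), and all points lie below 0, from -1.21 for Pcolce2 to -6.97 for Ogn.

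The order of the levels differed between the species. In ferret astrocytes Bgn and Lox led at 53.1 and 38.6 FPKM, and the next gene, Prelp, stood at 3.24. Fmod and Dcn followed at 1.71 and 1.67 with duplicates that overlapped, then Ogn at 1.19, Lum at 0.760 and Pcolce at 0.709, of which the last pair also overlapped. In mouse astrocytes the order ran from Lox at 384 and Bgn at 317 through Ogn, Pcolce, Dcn, Fmod and Prelp to Lum at 7.99, Pcolce2 at 3.07 and Aspn at 0.752, and no neighbours overlapped in their duplicates. Ranked among all 13373 shared symbols of a library, Bgn was at percentile 93.5 and 93.4 in ferret, and Lox at 91.9 and 89.4. Prelp came next in ferret at percentile 45.0 and 42.4, and Ogn stood at 34.1 and 31.5 there against 98.2 and 98.1 in mouse. Pcolce stood at percentile 29.5 and 29.1 in ferret and 96.0 and 95.5 in mouse, and Dcn at 37.1 and 34.3 against 88.3 and 88.4.

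As shares of the summed FPKM of the 10 genes, Bgn and Lox made up 49.5% and 40.4% in ferret replicate 1 and 55.5% and 35.6% in ferret replicate 2. In the mouse libraries Bgn gave 29.5% and 30.0%, and Lox 36.5% and 35.6%. Ogn took 1.32% and 1.01% of the sum in ferret and 14.9% and 15.0% in mouse libraries. Pcolce took 0.700% and 0.698% in ferret and 8.65% and 8.39% in mouse libraries. The shares of Lox and Lum overlapped between the species, and those of the other genes did not. Bgn, Prelp and Pcolce2 had the higher share in ferret, and Ogn, Pcolce, Dcn, Fmod and Aspn in mouse. How often shares of other genes part in this way is not given, so nothing is read from it. These shares do not change when a library is rescaled by a common factor, and they rest on the same contrast that chose the genes.

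**Figure D3:**
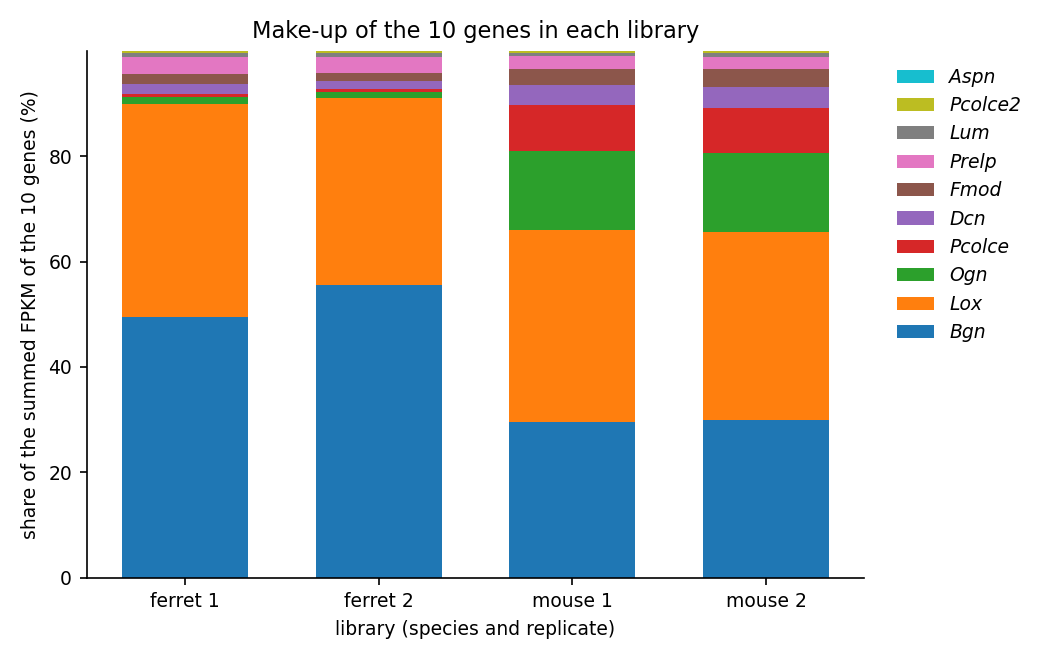
Make-up of the summed FPKM of the 10 genes in each library, with the share in percent on the vertical axis and 1 bar for each library on the horizontal axis. Bgn and Lox fill most of the ferret bars, and Ogn (14.9% and 15.0%) and Pcolce (8.65% and 8.39%) are visible in the mouse bars.

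The duplicates give the spread between the 2 libraries of a species, and not how precisely a low level was measured. On the log2(FPKM + 1) scale, the ferret duplicates lay apart by more than the median of all tested genes, 0.081, in 6 of the 9 genes above 0 in ferret. The mouse duplicates did so in 6 of the 10 genes, against a median of 0.065. The largest duplicate difference was 0.290 for Lox in ferret and 0.213 for Pcolce2 in mouse. Read counts, which the study lists in a supplement, were not used here, and no counting interval is given for a low value. The most frequent ratio of the duplicates among genes of low FPKM, inverted, gave only an estimate of relative depth. It was 1.16 as the ratio of the first to the second library in ferret and 0.835 in mouse.

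Many SLRP genes lie side by side in the mouse genome, in an order that the choice of the genes did not use. On chromosome 10 of GRCm38, Dcn (97479609 to 97518143), Lum (97565128 to 97572703), Kera and Epyc lie in this order on the plus strand, within 202.8 kb. Kera, which encodes keratocan of the cornea, is listed at 0 in both mouse libraries and had 0 and 0.014 FPKM in the ferret libraries. Epyc, the gene of epiphycan, had 0.026 and 0.031 FPKM in ferret and 11.3 and 11.7 in mouse libraries (log2 difference -3.60 ± 0.075, standard error; Benjamini-Hochberg adjusted p of the limma fit 1.02e-10). On the plus strand of chromosome 13, Ecm2, Aspn (49544443 to 49567565), Omd and Ogn (49608046 to 49624501) span 119.7 kb, all inside the span of Cenpp on the minus strand. Omd, which encodes osteomodulin, had 0.971 and 1.04 FPKM in ferret and 12.4 and 12.1 in mouse libraries and was lower in ferret (log2 difference -2.72, adjusted p = 4.97e-10 by limma). Ecm2, an SLRP-related gene at the start of that row, had 4.86 and 3.59 FPKM in ferret and 2.74 and 2.87 in mouse libraries. Its log2 difference of 0.45 (adjusted p = 0.00361 by limma) had the opposite sign to Omd and stayed under the value of 1 required for a call. Optc, Prelp (133910304 to 133921414, minus strand) and Fmod (134037254 to 134048277, plus strand) span 151.1 kb of chromosome 1. Optc, an SLRP gene of the eye, is listed at 0 in both ferret libraries and had 0.085 and 0.079 FPKM in the mouse duplicates. Neighbouring genes of a row thus had very unequal levels in the same libraries.

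**Figure D4:**
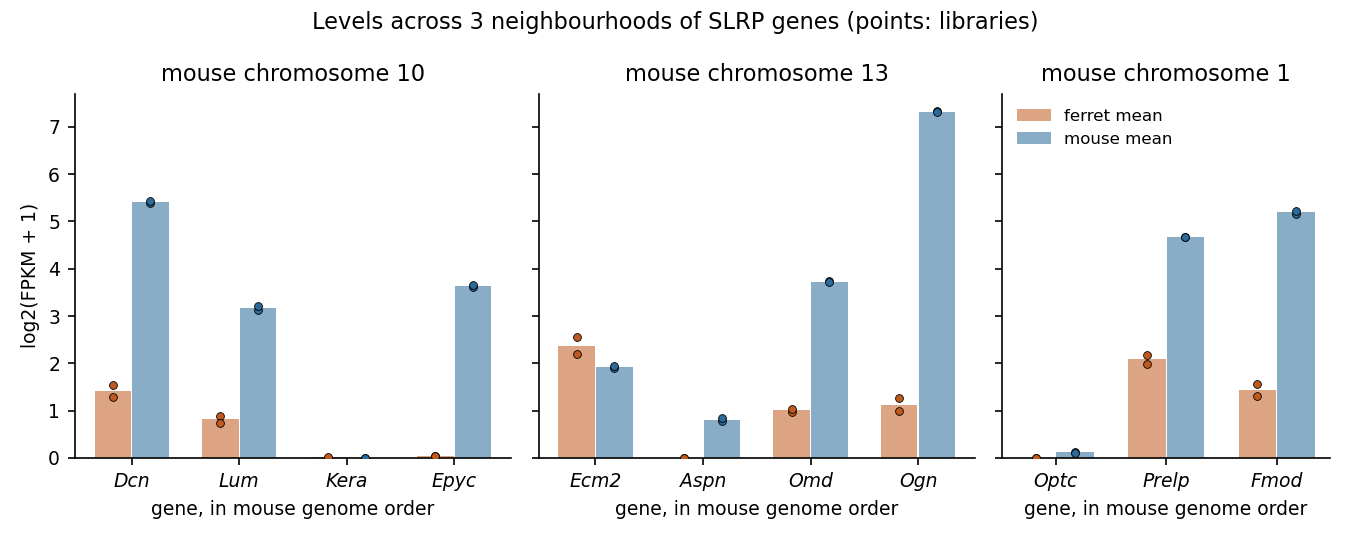
Levels of 11 SLRP genes in 3 neighbourhoods of the mouse genome, as log2(FPKM + 1), with genes in mouse order and spaced evenly, bars for means of 2 libraries, points for libraries, ferret in orange and mouse in blue. Ogn is the highest bar in mouse, Ecm2 has the higher bar in ferret, and Kera and Optc are at or near 0 in both species.

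Bgn lies on chromosome X from 73483602 to 73495933 (plus strand), Pcolce on chromosome 5 from 137605103 to 137613784 (minus strand) and Pcolce2 on chromosome 9 from 95637601 to 95698096 (plus strand). Some exons are shared with other annotated genes, and whether the quantification used the strand is not given in the sources used here. Exons of Pcolce overlap those of other genes over 224 bp of 3823 bp, exons of Prelp over 350 bp of 3615 bp, and exons of Aspn over 7 bp of 2354 bp. For Epyc, 1041 bp of 2561 bp lie in exons of an antisense gene. Dcn, Lum, Fmod and Bgn overlap no other gene. No positions are given for the ferret genes.

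Of the SLRP genes outside the set, 11 were listed and all were shared, and 7 passed the minimum. By limma, with an adjusted p under 0.05 and a log2 difference beyond 1 in size required for a call, 4 of them were lower and 1 was higher in ferret astrocytes. Of all 10204 genes, 30.1% were called lower and 13.1% higher by the same rule. The genes called lower were Epyc, Omd, Tsku and Podn. A gene that passes the minimum through 1 species alone has to be the lower one in the other species. This holds for Epyc and Podn, which passed through mouse, and for Chad, which passed through ferret, so the filter set the direction of these 3 calls. Podn, which encodes podocan, had 0.337 and 0.289 FPKM in ferret and 6.78 and 7.24 in mouse libraries (log2 difference -2.61, adjusted p = 8.63e-10 by limma). Tsku, which encodes the secreted protein tsukushi, stood at 7.51 and 6.94 FPKM in ferret and 17.4 and 18.5 in mouse libraries (log2 difference -1.20). It was no longer called with the libraries rescaled to the mean sum (-0.85), rescaled to a sum of 1000000 (-0.90) or after quantile normalization (-0.79). Chad, which encodes chondroadherin of cartilage, was higher in ferret, at 2.75 and 2.87 FPKM against 0.269 and 0.160 (log2 difference 1.65, adjusted p = 2.80e-08 by limma). The median log2 difference of the 7 genes was -1.20, against -0.35 for all tested genes.

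The proteinases and cross-linking enzymes that act beside Pcolce and Lox split. Of 10 genes, 9 passed the minimum. By limma 4 were called lower and 0 higher in ferret astrocytes, beside 30.1% and 13.1% of all genes. Another 4 differed at an adjusted p under 0.05 with a log2 difference within 1. Bmp1, the procollagen C-proteinase that PCOLCE enhances, had 6.99 and 7.37 FPKM in ferret and 48.9 and 47.6 in mouse libraries (log2 difference -2.59, adjusted p = 2.47e-10 by limma). The ratio of Pcolce to Bmp1 was 0.106 and 0.092 in the ferret duplicates and 1.91 and 1.85 in the mouse duplicates. Tll1, another proteinase of this family, was also called lower, at 0.195 and 0.228 FPKM against 4.46 and 4.44, and had passed the minimum through mouse alone. Loxl1, a lysyl oxidase needed for elastic fibres, had 1.96 and 1.68 FPKM in ferret and 22.6 and 23.0 in mouse libraries (log2 difference -3.08, adjusted p = 2.95e-10 by limma). Loxl2 stood at 17.7 in both ferret libraries and at 57.0 and 56.0 in mouse libraries (log2 difference -1.62). Loxl3 had 30.8 and 35.3 FPKM in ferret and 36.0 and 31.9 in mouse libraries, and its log2 difference of -0.04 did not pass the test (adjusted p = 0.658 by limma, standard error 0.083). Lox was at 0.830 and 0.622 times the sum of Loxl1 to Loxl4 in ferret and at 3.37 and 3.33 times in mouse libraries. Rescaling to a sum of 1000000 added Tll2 as a gene called higher in ferret, which gave 4 lower and 1 higher.

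The enzymes and chaperones that fold procollagen inside the cell had a median difference near that of all genes. Of 18 genes, 17 were shared and tested. By limma 6 were called lower and 0 higher in ferret astrocytes, beside 30.1% and 13.1% of all genes, and the median log2 difference was -0.45. FPKM of the 17 genes summed to 1041 and 1127 in the ferret duplicates and to 1137 and 1157 in the mouse duplicates. Ppib and Serpinh1 gave the largest parts of these sums in each library. Serpinh1, the collagen chaperone HSP47, had 260.0 and 286 FPKM in ferret and 251 and 254 in mouse libraries (log2 difference 0.11 with a standard error of 0.065, adjusted p = 0.131 by limma). Ppib, a prolyl isomerase of the endoplasmic reticulum, had 428 and 476 FPKM in ferret and 298 and 304 in mouse libraries, with a log2 difference of 0.58 that was under the value required for a call. Fkbp10, another isomerase, stood at 73.5 and 80.0 FPKM against 56.0 and 57.1 (log2 difference 0.43). P4ha1, which encodes a catalytic subunit of prolyl 4-hydroxylase, was called lower at 31.3 and 31.7 FPKM against 78.0 and 79.3 (log2 difference -1.29, adjusted p = 1.10e-08 by limma). The other genes called lower were P4ha2, P4ha3, P3h4, Crtap and Fkbp14, with log2 differences from -1.68 (P3h4) to -3.36 (P4ha3). With libraries rescaled to the mean sum, P4ha1 lost its call (-0.91) and the lysyl hydroxylase gene Plod1 was called higher (1.34). The split became 5 lower and 1 higher, as it did after rescaling to a sum of 1000000 and after quantile normalization. Shares of all genes under these settings are not given.

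Genes for the glycosaminoglycan chains of proteoglycans were called at close to the shares of all genes. Of 22 listed genes, 19 were tested, 7 were called lower and 3 higher in ferret astrocytes by limma, beside 30.1% and 13.1% of all genes, with a median log2 difference of -0.41. Csgalnact1 among the lower genes passed the minimum through mouse alone, and Chst1 and B3gnt7 among the higher genes through ferret alone. Chst2, a sulfotransferase of N-acetylglucosamine, had 3.25 and 2.72 FPKM in ferret and 60.0 and 66.5 in mouse libraries (log2 difference -4.01, adjusted p = 1.05e-10 by limma). The called genes that were higher in ferret were Chst1, B3gnt7 and Ust. Chst1 had 18.7 and 17.7 FPKM in ferret and 0.911 and 0.838 in mouse libraries (log2 difference 3.35, adjusted p = 1.50e-10 by limma). B3gnt7 stood at 5.51 and 5.92 FPKM against 0.692 and 0.557, and Ust, a uronyl sulfotransferase, at 4.47 and 5.50 against 1.74 and 1.72. The linkage enzyme genes B3gat3, at 34.1 and 35.5 FPKM in ferret and 29.0 and 32.6 in mouse libraries, and Fam20b, at 30.4 and 30.5 against 25.9 and 26.3, were close in both species, with log2 differences of 0.17 and 0.21. Chpf, a chondroitin polymerizing factor, had a log2 difference of -0.68. After quantile normalization the split was 4 lower and 3 higher, and after rescaling to a sum of 1000000 it was 6 lower and 4 higher. The median of all tested genes also moved under these settings, to 0.08 and -0.006, and their shares of all genes are not given.

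The fibrillar collagens to which SLRPs bind were also called at close to the shares of all genes. Of 9 chains tested, 3 were called lower and 1 higher in ferret astrocytes by limma, beside 30.1% and 13.1% of all genes, with a median log2 difference of -0.86. With a pseudocount of 0.1, Col2a1 and Col11a2 were called lower too, which gave 5 lower and 1 higher. Col3a1 had 1.60 and 1.43 FPKM in ferret and 402 and 375 in mouse libraries (log2 difference -7.27, adjusted p = 2.38e-12 by limma). Col1a1 had 32.2 and 28.8 FPKM against 164 and 156, and Col1a2 84.6 and 74.6 against 215 and 205, with log2 differences of -2.36 and -1.39. Col5a2 had 102.4 and 101.3 FPKM in ferret and 97.4 and 93.9 in mouse libraries, and its log2 difference of 0.09 did not pass the test (adjusted p = 0.154 by limma). Col5a3 was higher in ferret, at 53.5 and 56.2 FPKM against 6.26 and 6.15 (log2 difference 2.95, adjusted p = 1.15e-10 by limma). Taken against Col1a1 plus Col1a2 in the same library, the summed 7 SLRP genes of the set stood at 0.529 and 0.596 in ferret and at 1.55 and 1.62 in mouse. Lox stood at 0.364 and 0.335 of the same sum in ferret and at 1.04 in both mouse libraries. The mouse means of these ratios were 2.82-fold and 2.97-fold above the ferret means, and the ratios rest on the same values that chose the genes.

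**Figure D5:**
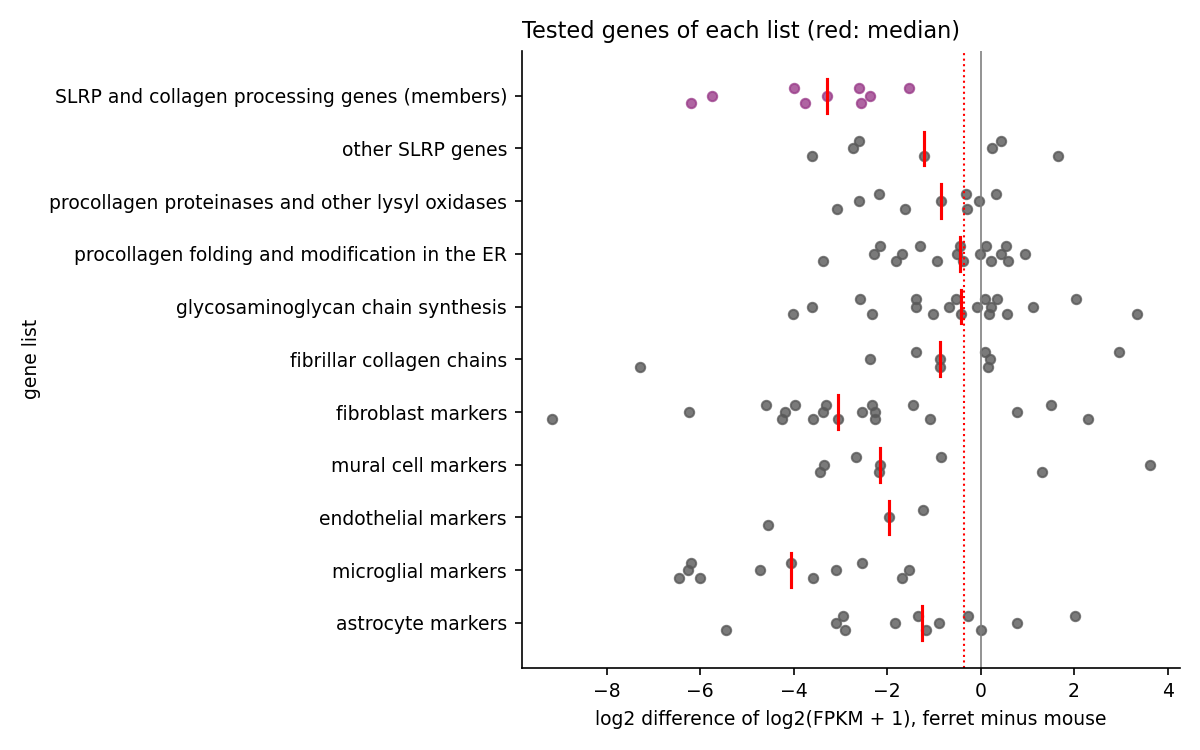
Log2 difference, ferret minus mouse on the log2(FPKM + 1) scale, of every tested gene in the set (purple) and in 10 other gene lists (grey), with red bars for list medians, a solid line at 0 and a dotted red line at the median of all 10204 genes, -0.35. The set has its median at -3.29, the folding enzymes theirs at -0.45, and the fibroblast markers reach from -9.18 to 2.30.

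Most fibroblast markers outside the set were lower in ferret astrocytes. Of 26 markers, 22 were shared and 19 tested, of which 16 were called lower and 2 higher by limma, beside 30.1% and 13.1% of all genes, with a median log2 difference of -3.05. Of the 16 genes called lower, 11 had passed the minimum through mouse alone, Serpinf1, Foxc1 and Tbx18 among them, so the filter set their direction. The list was drawn up with a lower level of fibroblast genes in ferret already known and is no independent evidence of its direction. Its shared genes summed to 140 and 137 FPKM in the ferret duplicates and to 1449 and 1514 in the mouse duplicates. Fbln2, a fibulin of elastic matrix, had 2.55 and 2.51 FPKM in ferret and 85.4 and 81.7 in mouse libraries (log2 difference -4.58, adjusted p = 1.23e-11 by limma). Islr stood at 4.04 and 3.68 FPKM against 87.6 and 95.2. Thy1, which neurons also express, stood at 32.6 and 33.7 against 395 and 428. Serpinf1, which encodes the secreted factor PEDF and was likewise chosen by the study as mouse-specific, had 0.094 and 0.128 FPKM in ferret and 630 and 653 in mouse libraries. Among transcription factors of mesenchymal cells, Foxc1 had 1.10 and 0.772 FPKM in ferret and 8.29 and 8.04 in mouse libraries (log2 difference -2.25, adjusted p = 8.01e-09 by limma). Tbx18 had 0.294 and 0.283 FPKM against 6.61 and 6.40 (log2 difference -2.54, adjusted p = 8.15e-10 by limma). Twist1 had 13.1 and 13.2 FPKM in the mouse duplicates, and no ferret value of it was analysed here.

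The 2 markers called higher in ferret were Prrx1 and Postn. Prrx1, a mesenchymal homeobox gene, had 57.6 and 55.2 FPKM in ferret and 18.6 and 19.6 in mouse libraries (log2 difference 1.52, adjusted p = 6.73e-09 by limma). Postn, which encodes the matrix protein periostin, had 21.0 and 21.6 FPKM against 3.59 and 3.45 (log2 difference 2.30, adjusted p = 8.15e-10 by limma). Pdgfra, a receptor of fibroblasts and of oligodendrocyte precursors, had 3.07 and 3.23 FPKM in ferret and 1.64 and 1.23 in mouse libraries. Its log2 difference of 0.77 was under the value required for a call, and it was called higher with libraries rescaled to the mean sum (1.04), with a sum of 1000000 (1.36), after quantile normalization (1.18) and with a pseudocount of 0.1 (1.09). The fibroblast genes Dpt and Fap were under 1 FPKM in all 4 libraries, and Slc22a6 is listed at 0 in all 4. Of the 22 shared markers, 4 are listed at 0 in both ferret libraries, namely Twist2, Slc22a6, Dpt and Mgp. Mgp had also been chosen by the study as mouse-specific.

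Most tested markers of mural, microglial and endothelial cells were called lower in ferret as well, but the filter set the direction of many of these calls. Of 12 mural cell markers, 8 were tested, 5 called lower and 2 higher in ferret astrocytes by limma, beside 30.1% and 13.1% of all genes. The shared genes of that list summed to 200.2 and 175 FPKM in ferret and to 1195 and 1238 in mouse libraries. Tagln and Acta2, which are smooth muscle genes that cultured fibroblasts and astrocytes can also express, had 151 and 130 and 22.9 and 20.4 FPKM in ferret, against 879 and 906 and 221 and 238 in mouse libraries. Pdgfrb had 4.57 and 4.38 FPKM in ferret and 24.5 and 22.7 in mouse libraries, and Cnn1 4.93 and 4.41 against 60.1 and 60.6. The pericyte genes Kcnj8, at 11.7 and 11.3 FPKM against 0.014 and 0.023, and Higd1b, at 1.77 and 1.45 against 0.098 and 0, were called higher in ferret after passing the minimum through ferret alone. Of the 5 genes called lower, 1 had passed through mouse alone, so the filter set its direction too. Rgs5 was under the minimum and not tested, at 0 in both ferret libraries and 0.601 and 0.576 FPKM in mouse libraries.

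All 11 tested microglial markers, of 12 listed, were called lower in ferret astrocytes by limma, beside 30.1% of all genes. Of these, 9 had passed the minimum through mouse alone, which set their direction. The 11 genes summed to 7.50 and 6.80 FPKM in ferret and to 616 and 590 FPKM in mouse libraries. Cx3cr1 is listed at 0 in both ferret libraries, and C1qc had 1.10 and 0.904 FPKM in ferret and 145 in both mouse libraries. Tyrobp, C1qb and Ctss, which the study had chosen from these same libraries as mouse-specific, had log2 differences of -6.45, -6.26 and -5.99. Of 12 endothelial markers, 3 passed the minimum, all 3 through mouse alone, and these genes, Cdh5, Esam and Tek, had to be lower in ferret. Cdh5 and Tek are listed at 0 in both ferret libraries, and Cdh5 had 22.0 and 22.5 FPKM in the mouse duplicates, while the endothelial genes Pecam1, Cldn5 and Sox17 were at or near 0 in all 4 libraries. Kdr, which encodes a VEGF receptor, was under the minimum. The endothelial list summed to 0.833 and 0.889 FPKM in ferret and to 29.0 and 29.4 in mouse libraries.

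The 12 astrocyte markers summed to 3766 and 3881 FPKM in the ferret duplicates and to 3832 and 4151 in the mouse duplicates. Most of each sum came from Gfap and Aldoc, and the median log2 difference of the 12 genes was -1.25. By limma 7 were called lower and 1 higher in ferret astrocytes, beside 30.1% and 13.1% of all genes. With libraries rescaled to the mean sum, for which shares of all genes are not given, the split was 5 lower and 2 higher. Gfap, the filament gene of astrocytes, had a log2 difference of 0.01, Aldoc of 0.78, Glul of -1.82 and S100b of 2.01. The glutamate transporter gene Slc1a2 had 0.133 and 0.178 FPKM in ferret and 47.1 and 51.8 in mouse. It passed the minimum through mouse alone, so the filter set the direction of its call. The water channel gene Aqp4 had 24.8 and 21.8 FPKM against 201.5 and 209.9, Aldh1l1 10.1 and 9.60 against 81.2 and 84.3, and Ndrg2 21.9 and 19.7 against 154 and 169. The part of these other cells in the levels of the 10 genes was not tested.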

How the data were processed

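RNA-seq libraries of cultured astrocytes, 2 of ferret and 2 of mouse, were grouped by the species in their labels. Per the labels, bcl2fastq 2.17, STAR 2.7.0f and Cufflinks 2.2.1 were used. The authors aligned the polyA-selected, paired-end reads of 101 bp to the Ensembl genome of each species (mouse build GRCm38) and deposited FPKM per gene and library. The study also lists read counts in a supplement, which were not used here, so depth and counting intervals are not given. Mouse positions are those of GENCODE M21 on GRCm38, an annotation release other than that of the authors.

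Symbols were joined in upper case, and for repeated symbols the row with the highest species mean was kept. The 13373 shared symbols were set to log2(FPKM + 1), and 10204 genes with a mean of at least 1 FPKM in a species were fitted with limma 3.58.1 in R 4.3.3, using moderated variances with a mean trend and no covariates. Calls required a Benjamini-Hochberg adjusted p under 0.05 over all genes tested and an absolute log2 difference above 1. On simulated data for 10204 genes of the ferret against mouse comparison, 199 of 200 genes changed by 1.5 (log2) were called, with 0 false calls. The changed genes were drawn from genes of higher level, all other genes had no difference, and the measured spreads were shuffled between genes. The simulation therefore does not show how calls hold for genes of low level or where many genes differ. With 2 libraries a species, the smallest p of an exact permutation test is 0.333. Ratios and shares were computed with pandas 2.3.3.

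The 10 genes and all lists were chosen with earlier results of these data known. Genes named were the 10 genes; from each list the 4 with the highest average of the species means and up to 3 called genes against the direction of most; Kera, Epyc, Omd, Optc and Ecm2; and Pdgfra, Twist1, Prrx1, Foxc1, Tbx18, Dpt and Fap. Tll1, Tll2, Plod1, P4ha2, P4ha3, P3h4, Crtap, Fkbp14, Slc22a6, Twist2, Mgp, Rgs5, Cx3cr1, Col2a1, Col11a2, Csgalnact1, Slc1a2, Aqp4, Aldh1l1, Ndrg2, Pecam1, Cldn5 and Sox17 were named after their values were seen. The fit was repeated with quantile normalization, 2 rescalings, a pseudocount of 0.1, a replicate block, all genes, summed rows, constant prior variance, and without each library. Some positions are not reported here.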

Additional observations from a re-analysis of the deposited data

How the results depend on the processing

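All 9 fitted genes of the set stayed lower in ferret astrocytes, with a log2 difference below -1, under each alternative tried, which included each library left out in turn. Aspn entered without the filter (-0.81) and with FPKM rescaled to a sum of 1000000 (-1.79). The pseudocount of 0.1 moved Ogn, Pcolce, Lum and Pcolce2 by over 1.5 times, and leaving out a library moved none of the 9 that far. Counts of called genes, both directions summed, stayed within 1.5 times the value in the report for all 10 other lists and all alternatives, except that 5 endothelial markers were called in place of 3 with FPKM rescaled to a sum of 1000000, where 7 of them passed the minimum in place of 3. By direction, genes called lower moved from 7 to 4 for glycosaminoglycan synthesis (quantile normalization) and from 3 to 5 for fibrillar collagens (pseudocount of 0.1). Genes called higher moved from 1 to 2 for astrocyte markers and from 0 to 1 for the folding enzymes (both rescalings and quantile normalization), and from 0 to 1 for the proteinases (sum of 1000000). Leaving out a library changed the count of 2 lists, to 9 called glycosaminoglycan genes in place of 10 (Dsel lost its call without ferret replicate 2 or mouse replicate 1) and to 17 called fibroblast markers in place of 18 (Col6a3 lost its call without mouse replicate 1). In these fits the lone library of a species is assumed to vary like the other species. The replicate numbers are shared by the labels of both species, whose libraries come from different animals, and the deviations of same-numbered libraries had a correlation of 0.01 across 10204 genes. With the replicate block, 9 genes of the set stayed below -1 and no call in the other lists changed. Read counts were not used here, so levels near 0, such as those of Aspn, Optc and Kera, are given with no interval.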
